A study of Mus musculus with 12 samples.

Results

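Nuclear genes for subunits of complexes III, IV and V of the respiratory chain were examined in the prefrontal cortex of mice after repeated cocaine. The genes were taken by name, as every tested locus of the deposited tables whose symbol begins with Uqcr, Cox4 to Cox8 or Atp5, or is Cyc1. The name pattern itself uses no measured value, but it was proposed with earlier results of these data known. This gave 42 gene names of the 16077 named loci tested in any table: 9 of complex III, 14 of complex IV, 15 of complex V and 4 that share the name pattern but are not subunits. The 4 were Cox7a2l, a factor that joins complexes III and IV into supercomplexes, Atp5s, Atp5sl and the pseudogene Atp5l2-ps.

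The mice were male C57BL/6 (C57BL/6 J in the study's methods), aged 10 weeks, and received either saline or cocaine at 20 mg/kg once a day for 14 days. The prefrontal cortex was taken 2 h, 24 h or 7 d after the final dose, which gave 6 groups. Every group was sequenced as 2 libraries, each pooled from the tissue of 5 mice, so that 12 libraries stood for 60 mice. The protocol in the labels speaks of 6 libraries, although 12 samples are listed, so how many libraries each pooled value rests on is not fully settled. The animals were wild type and carried no transgene or other treatment. For each group the authors deposited 1 pooled FPKM (sequenced fragments per unit of transcript length and of library size) per gene, with no value per library. The spread between libraries is therefore unknown here, no test could be made, and every difference below is a description. Depth is unknown from the tables as well.

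Oxidative phosphorylation takes place in the inner mitochondrial membrane. Complex III passes electrons from ubiquinol to cytochrome c, complex IV (cytochrome c oxidase) passes them on to oxygen, and complex V (ATP synthase) makes ATP from the proton gradient that the other complexes build. Complexes III and IV are each built around a few catalytic subunits, with many small subunits of nuclear origin at their edges that serve in assembly, stability and tissue-specific tuning. ATP synthase has a catalytic head, a central and a peripheral stalk, and a membrane ring that turns as protons pass. Neurons depend on this pathway for most of the ATP that firing and synaptic transmission consume, and cortical tissue expresses its genes strongly.

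Many of these genes are known to be controlled by NRF-1 and by ETS-family factors such as GABP, so the DNA just before their start sites was read. RefSeq promoter sequences (GRCm38.p6) matched 30 of the 42 names, with 33 windows of 250 bases before a start site. The letters GCATGCGC or their reverse complement GCGCATGC, the core of the NRF-1 motif, were present in 4 of the 33 windows (12.1%), against 2.26% of all 32851 windows of the same length. The ETS letters CCGGAAG or their reverse complement CTTCCGG were present in 8 of the 33 (24.2%), against 6.91%. The NRF-1 letters and their reverse complement can overlap, and a window with both was counted once. A match is a description of the sequence and not of a bound site.

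The 170 bases before the start are given below for the pair of members of each of complexes III and IV whose 7 d level in cocaine was lowest against saline among those with a sequence and a mean of at least 1 FPKM, for Cox6a1, which holds both motifs, and for Atp5k, the complex V member with no decrease at 7 d. Capitals mark the motifs. All 6 genes lie on the minus strand, and the sequences read 5′ to 3′ along the gene.
Uqcrh (chr4:116075071-116075240): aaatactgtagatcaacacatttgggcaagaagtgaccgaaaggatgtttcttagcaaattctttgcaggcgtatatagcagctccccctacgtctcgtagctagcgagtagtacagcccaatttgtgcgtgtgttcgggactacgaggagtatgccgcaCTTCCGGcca
Uqcr11 (chr10:80406822-80406991): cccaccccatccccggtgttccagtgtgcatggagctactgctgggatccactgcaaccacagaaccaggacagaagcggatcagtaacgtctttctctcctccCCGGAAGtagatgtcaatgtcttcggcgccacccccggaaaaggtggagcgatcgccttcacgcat
Cox7a2 (chr9:79759854-79760023): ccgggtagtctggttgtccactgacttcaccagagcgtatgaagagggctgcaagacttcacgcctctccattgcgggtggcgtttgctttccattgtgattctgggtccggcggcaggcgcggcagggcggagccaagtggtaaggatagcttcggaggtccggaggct
Cox7c (chr13:86046796-86046965): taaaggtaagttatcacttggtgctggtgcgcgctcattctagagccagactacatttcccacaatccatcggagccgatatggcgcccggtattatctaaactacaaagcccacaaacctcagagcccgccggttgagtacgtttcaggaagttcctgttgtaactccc
Cox6a1 (chr5:115348959-115349128): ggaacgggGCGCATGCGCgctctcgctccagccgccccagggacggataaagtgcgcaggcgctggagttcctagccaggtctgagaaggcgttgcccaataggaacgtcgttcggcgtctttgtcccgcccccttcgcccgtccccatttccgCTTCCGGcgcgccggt
Atp5k (chr5:108434400-108434569): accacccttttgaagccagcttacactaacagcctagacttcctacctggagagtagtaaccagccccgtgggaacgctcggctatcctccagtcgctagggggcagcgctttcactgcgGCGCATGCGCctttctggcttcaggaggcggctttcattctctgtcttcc
Uqcrh and Uqcr11 hold the ETS letters, Atp5k the NRF-1 letters on both strands, and Cox7a2 and Cox7c neither within these bases. The 4 members with the NRF-1 letters were Atp5g2, Atp5k, Atp5l (further upstream than the bases shown for the others) and Cox6a1, and their 7 d log2 ratios of cocaine to saline ran from -0.38 to 0.05 with a median of -0.18, against -0.23 for the other 25 names with a window and a 7 d ratio. For the 8 with the ETS letters (Atp5e, Atp5h, Atp5j, Atp5l, Cox6a1, Cox6b1, Uqcr11 and Uqcrh) the median was -0.32, against -0.21 for the other 21. Members with either motif were thus found over much of the range of 7 d ratios.

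Cocaine was set against saline within each table as log2 of (cocaine FPKM + 1) over (saline FPKM + 1), for loci with a mean FPKM of at least 1 in the pair of groups. A locus past 1.2-fold (0.26 on the log2 scale) in either direction is called higher or lower. The value of 1.2 only sorts the loci, since no error is known. Of the 42 names, 40 entered at 2 h, 40 at 24 h and 39 at 7 d. Uqcrb had no row of its own at 7 d, where it was listed jointly with Mterfd1 (log2 ratio of the joint locus -0.29). Cox8b, the heart and muscle form of subunit 8, was tested at 7 d alone, at 1.02 and 0.45 FPKM, and Atp5l2-ps stayed near or under 1 FPKM, so neither entered. Cox4i1, another complex IV subunit, was found under no locus name at any time point. It is therefore missing from the complex IV counts, medians and sums. Levels are given below as pairs, saline first and cocaine second, and comparisons of levels across time points set tables side by side that were normalised separately.

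At 7 d the members lay lower in cocaine than in saline. Of 39 members 17 were lower at 7 d and 0 higher, where 9.05% of all 13310 loci tested were lower and 4.88% higher. The median log2 ratio was -0.23 over the members and -0.01 over all loci. Below 0 lay 37 of the 39 members and 6980 of all 13310 loci. Short genes in general were lower at 7 d (40.4% of 361 other genes under 700 nt). With the median ratio of genes of like length subtracted, the members' median was -0.08 and 4 of 39 were lower, beside 3.3% of 11270 loci. Without that subtraction, by complex, 5 of 8 members of complex III (median -0.28), 6 of 13 of complex IV (-0.23) and 6 of 15 of complex V (-0.22) were lower. Cox5b (0.03) and Atp5k (0.05) were the 2 members above 0. Because whole tissue was sequenced, fewer cells of a type and less RNA per cell cannot be told apart.

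The summed FPKM of the members tested in every table ran in the same order of the complexes. The sums are made from the same pooled values as the medians, so they are not separate support. With the median ratio of genes of like length subtracted, the medians were -0.092 for complex III, -0.024 for IV and -0.064 for V. The order of complexes IV and V is therefore not stable. Complex III summed to 1887 FPKM in saline and 1511 in cocaine at 7 d (-19.9%), complex IV to 4802 and 4050.0 (-15.7%), and complex V to 4188 and 3604 (-14.0%). At 2 h the sums in cocaine differed from saline by 2.68%, 4.62% and 0.857% for complexes III, IV and V, and at 24 h by -2.24%, -4.30% and -1.43%. A few abundant genes weigh most in these sums.

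**Figure D1:**
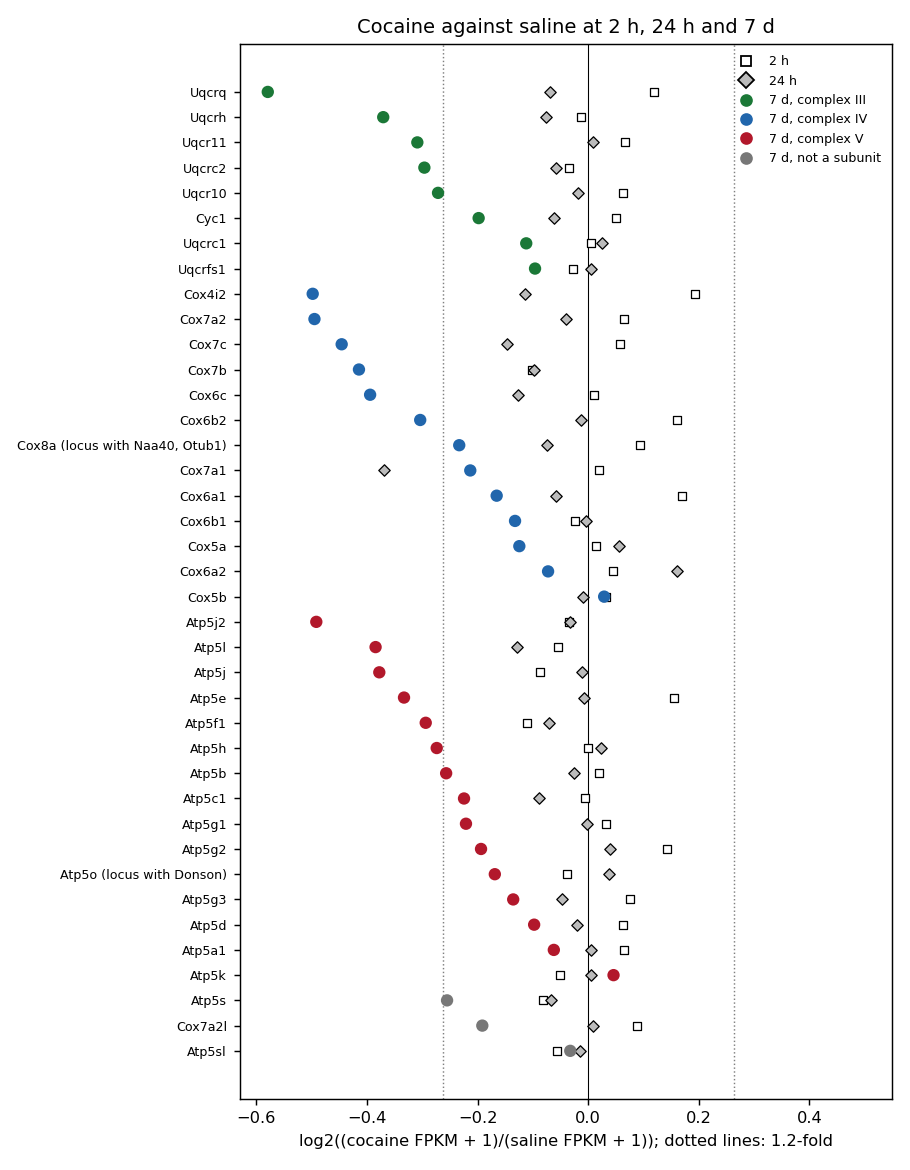
Log2 ratio of cocaine to saline (x axis, pseudocount 1) for each member at 2 h (open squares), 24 h (grey diamonds) and 7 d (filled circles, coloured by complex), with dotted lines at 1.2-fold. The 7 d circles of 17 members lie left of the lower line, while 1 diamond (Cox7a1) and no square does.

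Complex III held the member with the lowest 7 d log2 ratio of all. Uqcrq, a small subunit at the ubiquinone-binding side of the complex (chr11:53427922-53430831, the span of the whole locus), stood at 205 and 222 FPKM at 2 h, 219 and 209 at 24 h, then 302 and 202 at 7 d. The 7 d log2 ratio was -0.58, a change of -33.2% in FPKM. Saline 7 d was the high group, and the other 5 groups lay between 202 and 222.

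The same arrangement was seen in the other small subunits of complex III. Uqcrh, the hinge protein beside cytochrome c1 (chr4:116066965-116075071), was at 309 and 306 at 2 h, 275 and 261 at 24 h, then 396 and 306 at 7 d (-0.37). Uqcr11, a small membrane subunit, was at 285 and 298, 278 and 279, and 349 and 282 (-0.31). Uqcr10, another such subunit, was at 255 and 267, 284 and 281, and 329.9 and 273 (-0.27). In all of them saline 7 d exceeded the other 5 groups, and cocaine 7 d lay within the range of the 4 groups of 2 h and 24 h. Uqcrb, named alone at 2 h and 24 h only, was at 118 and 115 and then at 119 and 109.9 FPKM. At 7 d almost the same span carried the joint name with Mterfd1, at 150 and 122.5 FPKM (-0.29). It was left out of the 7 d values of complex III by its name alone.

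The large subunits of complex III moved less, with 1 exception. Uqcrc2, a core protein, was at 117 and 114 at 2 h, 115 and 110.3 at 24 h, then 141 and 114 at 7 d (-0.30). Cyc1, the cytochrome c1 that hands electrons to cytochrome c, was at 121 and 125, 122 and 117, and 147 and 128 (-0.20). Uqcrc1, the partner core protein, was at 132 and 122 at 7 d (-0.11), and Uqcrfs1, the Rieske iron-sulfur protein, at 89.9 and 84.0 (-0.10). The last 3 were not past 1.2-fold, and their 2 h and 24 h ratios lay between -0.06 and 0.05.

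In complex IV the lower members were Cox7a2, Cox7c, Cox7b, Cox6c, Cox4i2 and Cox6b2. Cox7a2, the form of subunit 7a found in most tissues (chr9:79755241-79759853), stood at 222 and 232 at 2 h, 206 and 200.4 at 24 h, then 307 and 217 at 7 d (-0.49). Cox7c was at 232 and 242, 285 and 258, and 345 and 253 (-0.45). Cox7b was at 141 and 131, 121 and 113, and 173 and 129.5 (-0.41). Saline 7 d was again above the other 5 groups in each of these genes. Cox6c, a further single-span subunit and an abundant member, was at 480.5 and 484, 549 and 503, and 696 and 529 FPKM (-0.39).

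Other abundant subunits of complex IV were not past 1.2-fold at 7 d. The locus that joins Cox8a with Naa40 and Otub1 held the highest level of any member, 1073 and 1145 at 2 h, 1233 and 1170.5 at 24 h, then 1425 and 1212 at 7 d (-0.23), and the part of each gene in it is not known. Cox6a1 was at 855 and 762 at 7 d (-0.17). Cox6b1, which faces the intermembrane space, was at 442 and 403 (-0.13). Cox5a and Cox5b, a pair of subunits on the matrix side, came to 225 and 207 (-0.12) and to 311 and 317 (0.03). Cox5b thus stood between 308 and 327 in all 6 groups, the only complex IV gene among these with no high level in saline 7 d.

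The isoforms of complex IV known from other tissues were measured at low levels. Cox4i2, the form linked to lung and to low oxygen, was at 3.13 and 3.72 at 2 h, 3.55 and 3.21 at 24 h, then 4.59 and 2.96 at 7 d (-0.50). Cox6b2, known from testis, was at 3.51 and 2.65 at 7 d (-0.30). Cox7a1 and Cox6a2, the heart and muscle forms, were at 5.88 and 4.93 (-0.21) and at 9.66 and 9.14 (-0.07). Differences of under 2 FPKM separate these groups. Marker genes of muscle summed to between 11.5 and 14.2 FPKM at 2 h and 24 h (4 of 6 tested) and to 1.51 and 1.33 at 7 d (2 of 6 tested), and their part in these isoforms was not tested.

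Minor isoforms were small shares of their pairs. Cox6a2 was 1.12% to 1.38% of Cox6a1 plus Cox6a2 over the 6 groups, Cox7a1 1.75% to 2.48% of its pair with Cox7a2, and Cox6b2 0.653% to 0.948% of its pair with Cox6b1. The 3 genes for the c subunit of the ATP synthase ring, which encode the same mature peptide, kept their order in every group. Atp5g3 gave 53.3% to 56.9% of their summed FPKM, Atp5g1 27.6% to 30.8% and Atp5g2 14.9% to 16.9%. At 7 d their own levels were 375 and 341 (-0.14), 197 and 169 (-0.22), and 102 and 89.3 (-0.19).

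In complex V the members past 1.2-fold lay in the membrane part outside the ring, in the peripheral stalk and, with Atp5e, in the central stalk. This placement depends on where the line is set and on the length trend. With the median ratio of genes of like length subtracted, Atp5j2 (-0.34) alone of complex V stayed past it. On that scale Atp5b of the head (-0.19) had a lower ratio than Atp5l (-0.17), Atp5j (-0.17), Atp5e (-0.12) and Atp5h (-0.06). Atp5f1 (-0.22) was lower than Atp5b. In the membrane part, Atp5j2 (subunit f, chr5:145183698-145192062) was at 155 and 151 at 2 h, 165 and 162 at 24 h, then 214 and 152 at 7 d (-0.49). Atp5l (subunit g) was at 221 and 213, 204 and 187, and 281 and 215 (-0.38). Atp5k (subunit e), which neighbours them in the enzyme, was at 356 and 344, 343 and 344, and 391 and 403 (0.05). It was the only one of the 39 members whose highest level of all 6 groups was in cocaine 7 d.

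The peripheral stalk, which holds the head still while the ring turns, had 3 of 4 members lower, beside 9.05% of all loci. Of these, Atp5f1 and Atp5h were only just past the line. Atp5j (coupling factor 6) was at 205 and 193 at 2 h, 202 and 200.5 at 24 h, then 252 and 194 at 7 d (-0.38). Atp5f1 (subunit b) was at 163 and 151 at 2 h and at 189 and 154 at 7 d (-0.29). Atp5h (subunit d) lay between 216 and 225 in 5 groups and at 261 in saline 7 d (-0.27). Atp5o, at a locus joined with Donson, was at 205 and 183 at 7 d (-0.17).

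In the head and central stalk only Atp5e was past 1.2-fold. Atp5e (epsilon) was at 221 and 246 at 2 h, 286 and 284 at 24 h, then 322 and 256 at 7 d (-0.33). Atp5b, the catalytic beta subunit and the most abundant gene of the complex, was at 599.7 and 608, 569 and 558, and 679 and 568 (-0.26), just short of the 1.2-fold line. Atp5c1 (gamma) was at 201 and 172 at 7 d (-0.22) and Atp5d (delta) at 185 and 173 (-0.10). Atp5a1, the alpha subunit that sits beside beta in equal number, stayed between 316 and 334 FPKM in all 6 groups (-0.06 at 7 d).

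**Figure D2:**
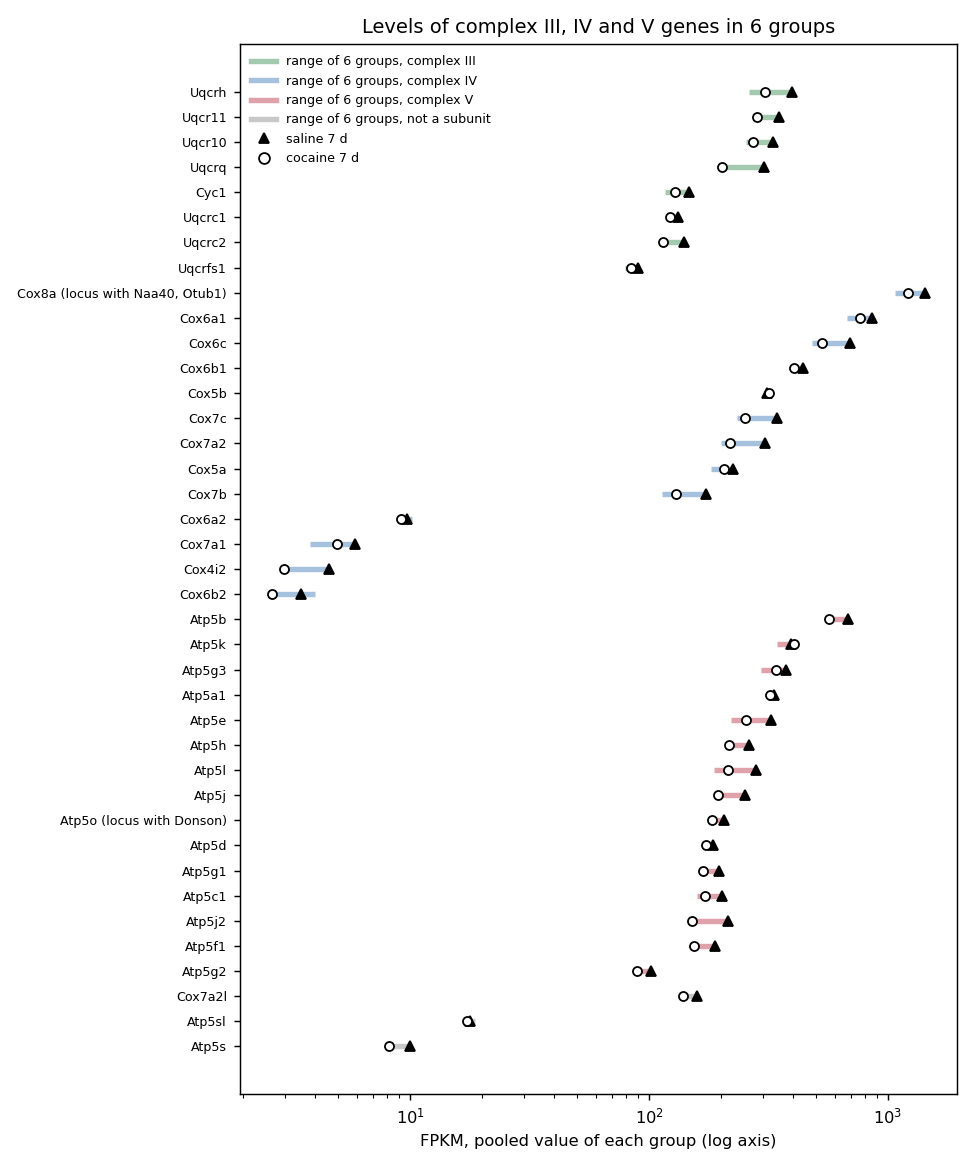
Pooled FPKM (x axis, log scale) of the 39 members tested in every table, with a bar from the lowest to the highest of the 6 groups, a triangle for saline 7 d and an open circle for cocaine 7 d. For 32 members the triangle is at the right end of the bar, and most bars lie between 79.0 and 1425 FPKM, with the minor isoforms of complex IV at 10.2 or less.

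The ratios at 2 h and 24 h were smaller. At 2 h, 0 of 40 members were lower and 0 higher, where 4.77% of 13262 loci were lower and 7.54% higher, and the median of 0.02 was that of all loci (0.02). The 2 h ratios ran from -0.11 (Atp5f1) to 0.19 (Cox4i2). At 24 h, 29 of 40 members lay below 0 (6 of 9 in complex III, 11 of 13 in complex IV and 10 of 15 in complex V) with a median of -0.02. Of all 13487 loci 6324 lay below 0. By the 1.2-fold line 1 of 40 was lower and 0 higher, where 3.46% of 13487 loci were lower and 4.01% higher. That member was Cox7a1, at 5.23 and 3.82 FPKM (-0.37). The medians at 24 h were -0.06 for complex III, -0.06 for complex IV and -0.01 for complex V, beside 0.01 over all loci.

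Across members the ratios at 24 h and 7 d went partly together (Pearson r = 0.39, Spearman rho = 0.57, 39 members), those at 2 h and 7 d did not (r = -0.11, rho = -0.05). Members share libraries, so these values describe the libraries. Uqcrh, Cox7c, Cox6c and Atp5l were on the lower side at 24 h (-0.08 to -0.15) as well as at 7 d.

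Large and small subunits were separated at 200 residues, with the coding length of the mouse GENCODE annotation. At 7 d the 9 large subunits had a median log2 ratio of -0.20, with 2 lower (Uqcrc2 and Atp5f1), and the 27 small ones a median of -0.27, with 15 lower. The medians differed by 0.076. The gap was widest in complex III, where the 4 large subunits had a median of -0.15 with 1 lower and all 4 small ones were lower with a median of -0.34. In complex V the medians of 5 large and 10 small subunits were -0.22 and -0.25, and every complex IV member was small. At 2 h the large-minus-small gap was -0.044 and at 24 h 0.00035.

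Subunit length and 7 d ratio went together across the 36 subunits at a Spearman rho of 0.39, as a description. With transcript length the rho was 0.12 across the 39 members. Expression level did not order the members (rho = -0.03 with mean FPKM), and the 33 members over 50 FPKM and the 6 under it had medians of -0.23 and -0.23. Within the small subunits the range was wide: Atp5k with 71 residues and Cox5b with 129 lay above 0, Uqcrq with 82 at -0.58.

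Over the 6 groups, saline 7 d stood out by its high levels. This group held the highest level in 32 of the 39 members (8 of 8 in complex III, 10 of 13 in complex IV and 12 of 15 in complex V) and the lowest in 0. Of all 12957 loci it was the highest group for 25.7% and the lowest for 29%. Cocaine 7 d held the lowest level in 9 of 39, against 17.3% of all loci (4 of 39 and 10.7% with the columns scaled to a common median). It lay inside the range of the 4 groups of 2 h and 24 h for 25 members, below it for 9 and above it for 5. The lowest level fell in saline 2 h for 13 members (15% of all loci) and in cocaine 24 h for 10 (10% of all loci).

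Saline 7 d exceeded the mean of saline 2 h and 24 h by a median of 0.23 on the log2 scale, and by at least 1.2-fold in 17 of 39 members, where 7.93% of all loci did so and the median of all loci was -0.01. The median was 0.28 in complex III, 0.29 in complex IV and 0.23 in complex V. The excess was 0.52 for Cox7a2, 0.51 for Uqcrq and 0.44 for both Uqcrh and Cox6c, while for Cox5b it was -0.03. Cocaine 7 d against the mean of cocaine 2 h and 24 h gave a median of -0.01, with 0 of 39 members higher by 1.2-fold (3.94% of all loci) and 1 lower, Cox6b2 at -0.36. Saline 24 h against saline 2 h gave a median of 0.01 over the members, but of 0.14 in complex IV, and 4 of 39 members were higher at 24 h by 1.2-fold, where 6.89% of all loci were. The largest of these differences was 0.37, for Atp5e. The factors that bring the 6 columns to a common median lay between -0.03 and 0.02 on the log2 scale, and with them saline 7 d was highest in 34 members. Between time points, time since the last dose and the separate processing of each table cannot be told apart in these levels. Saline 7 d and cocaine 7 d share both. With 1 pooled value for each group, cocaine and anything particular to the libraries of 1 group cannot be told apart either.

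**Figure D3:**
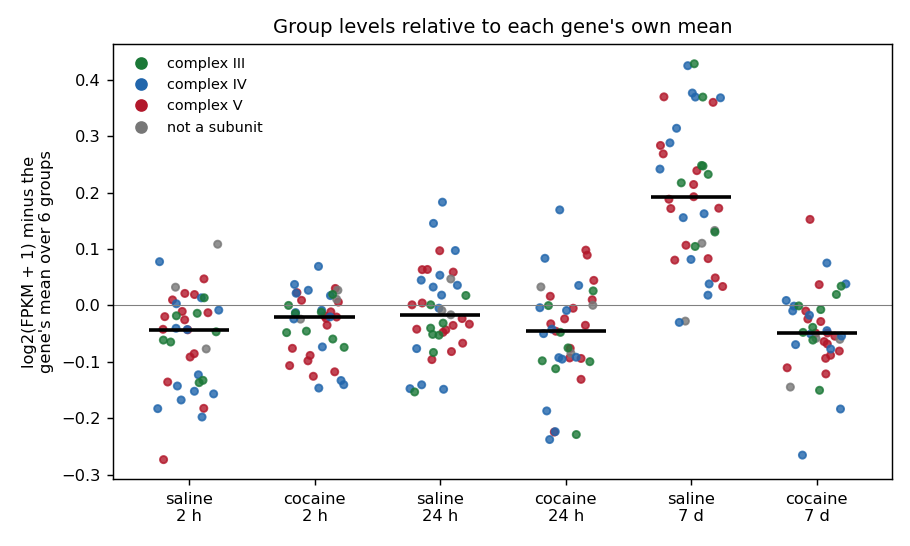
Log2(FPKM + 1) of each of the 39 members minus its own mean over the 6 groups (y axis), by group, with points coloured by complex and a black line at the median. The median is 0.19 in saline 7 d and between -0.05 and -0.02 in each of the other 5 groups.

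Saline 7 d also stood apart by transcript length over all genes. Among all genes with a known length, members included, the 7 d ratio of cocaine to saline went with length at a Spearman rho of 0.48, against 0.15 at 2 h and 0.093 at 24 h. Among the 39 members alone the 7 d rho was 0.12. Of 361 other genes under 700 nt, 40.4% were lower at 7 d with a median of -0.21, beside 9 of 19 members of that length with a median of -0.23. Between 700 and 1500 nt the values were 20.2% of 1700 genes and -0.13, beside 6 of 15 members and -0.22. Between 1500 and 3000 nt they were 5.33% of 4073 genes and -0.03, beside 2 of 5 members and -0.26. The members under 700 nt were thus near other short genes, and those of greater length were further below genes of like length.

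The length order was seen in the saline 7 d column and not in cocaine 7 d. In saline 7 d other genes under 700 nt lay at a median of 0.19 above their own mean over the 6 groups and those of 6000 nt and over at -0.13, whereas in cocaine 7 d the medians of all 5 length classes lay between -0.03 and -0.02. The median ratio of all genes of like length, members included, was then subtracted. The members' 7 d median was -0.08 and 4 of 39 were lower, beside 3.3% of 11270 loci. The 4 were Uqcrq (-0.43), Atp5j2 (-0.34), Cox4i2 (-0.29) and Cox7a2 (-0.29). On that scale Atp5k lay at 0.26 and Cox5b at 0.24, and the large-minus-small gap was -0.021. The part of transcript length, or of anything in the libraries that goes with it, in the 7 d difference was not tested.

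**Figure D4:**
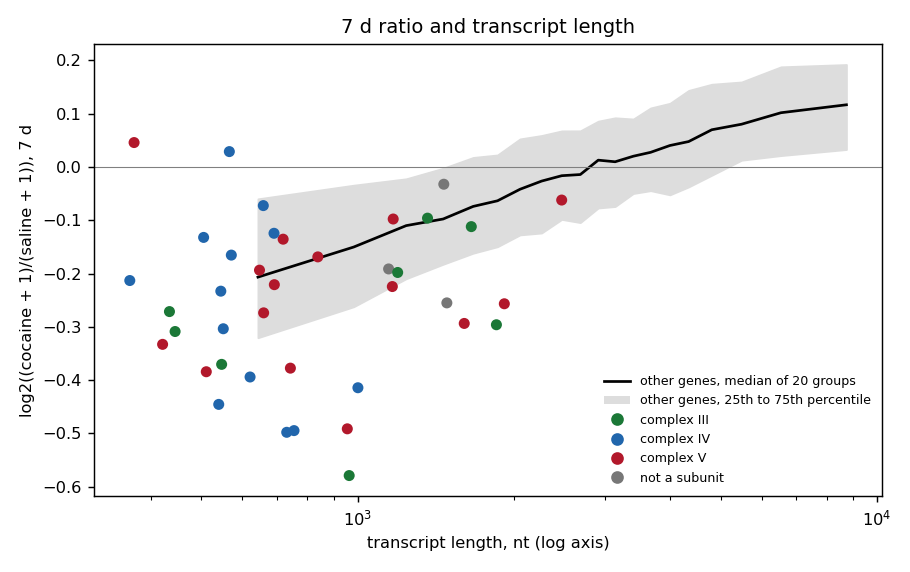
Log2 ratio at 7 d (y axis) against transcript length in nt (x axis, log scale), with the black line and grey band giving the median and the 25th to 75th percentile of other genes in 20 groups of equal size, and points for the 39 members by complex. The line climbs from -0.21 for the shortest group to 0.12 for the longest, and Uqcrq, Atp5j2, Cox7a2 and Cox4i2 lie well under it.

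**Figure D5:**
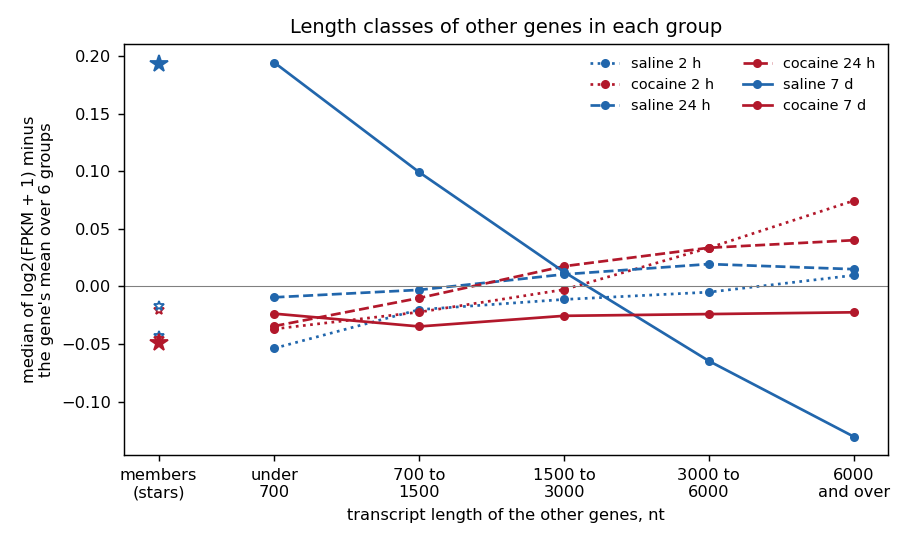
Median of log2(FPKM + 1) minus the gene's mean over 6 groups (y axis) for other genes in 5 classes of transcript length (x axis, nt), 1 line per group with saline in blue and cocaine in red, and stars at the left for the median of the members. The saline 7 d line falls from 0.19 to -0.13 and its star is at 0.19, while the cocaine 7 d line is flat near -0.02.

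The rest of the pathway was read from lists of its genes, and the length trend was not taken out for these lists. Of 36 complex I subunits 18 were lower and 0 higher at 7 d, beside 9.05% and 4.88% of all loci. The complex I median of -0.27 was close to that of complex III. Ndufb5 (171 and 120.1 FPKM, -0.51) and Ndufc2 (194 and 140.0, -0.47), both accessory subunits, had the lowest ratios, and Ndufa9 (62.5 and 62.1) and Ndufb10 (119 and 120.2) the highest. The medians of complex I at 2 h and 24 h were 0.01 and -0.02. Of 4 complex II subunits, which also serve the citrate cycle, 0 were past 1.2-fold (median -0.18), from Sdhb at -0.24 to Sdha, the flavoprotein, at 0.00.

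The 4 listed nuclear-encoded proteins of complexes IV and V whose symbols the name pattern does not cover were all lower at 7 d, beside 9.05% of all loci. Usmg5, a small ATP synthase protein, was at 556 and 379.6 FPKM (-0.55), 2010107E04Rik at 373 and 271 (-0.46), Atpif1, the ATP synthase inhibitor, at 398 and 288 (-0.46), and Ndufa4, now placed in complex IV, at 668 and 490.4 (-0.44). Cycs, the cytochrome c that links complexes III and IV, was at 72.4 and 54.6 (-0.40). Of the 6 listed mitochondrially encoded subunits of complexes III to V, only mt-Co2 (-0.24) and mt-Cytb (-0.14) had a value at 7 d. Neither was past 1.2-fold then. At 24 h they lay at -0.23 and -0.27, and at 2 h at 0.13 and 0.11.

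Assembly factors of complexes III to V were lower at 7 d in 10 of 32 measured and higher in 0, beside 9.05% and 4.88% of all loci. Their median was -0.12, from Pet100 (13.4 and 9.09 FPKM, -0.52) and Coa6 (24.9 and 17.7, -0.47) to Cox11 (4.42 and 5.44, 0.25). Regulators of mitochondrial biogenesis were past 1.2-fold in 0 of 10 measured at 7 d (median -0.01). Tfb2m, a mitochondrial transcription factor, lay at -0.25, and Gabpa and Yy1 at 0.14 and 0.17. Atp5s and Cox7a2l, which match the name pattern without being subunits, were at 9.98 and 8.20 FPKM (-0.26) and at 159 and 139 (-0.19) at 7 d, and Atp5sl was at 17.8 and 17.3 (-0.03).

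Markers of cortical tissue and of other cell types were read beside these results. The 6 markers of cortical glutamatergic neurons were all tested and summed to 577 and 587 FPKM at 7 d. All 6 astrocyte markers were tested. They summed to 532 and 637 at 7 d (0.26), 643 and 577 at 24 h, and 554 and 623 at 2 h. At 7 d 3 of the 6 were higher, beside 4.88% of all loci. The length trend was not taken out for the markers, and other genes of 6000 nt and over had a 7 d median of 0.11. Red blood cell genes (5 of 5 tested) summed to 452 and 529 at 7 d and to 323 and 504 at 2 h, and endothelial genes (5 of 5 tested) to 80.7 and 89.8 at 7 d (0.15), with all 5 above 0, and to 75.1 and 81.0 at 2 h. The neuron list, 3 of 5 tested at 7 d, summed to 1851 and 1732, where Snap25 was lower (1581 and 1453) while Rbfox3 (0.10) and Syn1 (0.03) lay above 0. The oligodendrocyte and microglia sums differed by -0.01 and 0.01 on the log2 scale at 7 d. Choroid plexus markers, 4 of 6 tested at 7 d, summed to 3.36 and 9.53, a difference that came from Ttr (0.284 and 6.54), while Folr1 was at 0.668 and 0.290 and Kl and Kcnj13 stood at 0.376 and 0.531 and at 2.04 and 2.16. At 7 d the astrocyte, endothelial and blood sums were higher in cocaine and the members lower. At 2 h these sums were higher and the members' median was 0.02. At 24 h the astrocyte (-0.16), endothelial (-0.08), oligodendrocyte (-0.27) and microglia (-0.13) sums were lower on the log2 scale. The blood sum was higher at 24 h (0.14), and the members' median was -0.02. The part of cell types in the 7 d difference was not tested.

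Several of these genes have processed pseudogenes or near-identical copies in the mouse genome. The authors kept reads with a unique position only, so reads shared with a copy may be missing from the FPKM and the levels of genes with copies are uncertain.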

How the data were processed

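RNA of prefrontal cortex from 12 samples in 6 groups was sequenced. Per the labels and the submitters' processing notes, reads were handled with CASAVA 1.8.2, Trimmomatic 0.32, TopHat2 2.0.12, Cufflinks 2.2.1 and Cuffdiff on GRCm38, and the authors deposited 1 pooled FPKM per group and locus for each time point. The paper names mm9, another trimmer and another read length, so loci were placed on GRCm38 after a check against RefSeq (39 of 42 symbols found, 39 loci overlapping). Which FPKM column is saline was settled from the headings of the paper's supplementary tables. The authors' columns of fold change, test statistic, p value and q value were not used; only their test status flag was read. Depth, and so counting error, is not known from FPKM.

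The members, gene lists and length check were chosen with earlier results of these data known. Ratios used a pseudocount of 1, loci of status OK whose mean FPKM reached 1, and 1 row per gene name (the longest locus, then the higher mean FPKM), in Python 3.11.15, pandas 2.3.3 and numpy 2.4.6, plotted with matplotlib 3.10.9. Transcript and coding lengths came from GENCODE vM1 and were found for 84.5% to 85.2% of loci. All members could be named; of each other list, at most the 2 lowest and 2 highest ratios at 7 d, beside listed sums. Proteins outside the name pattern were given in full. No p value was computed. The steps were tested on simulated data. Alternatives were the pseudocount, the FPKM filter, column scaling, the choice of locus, loci naming 1 gene only, removal of the length trend, known subunits only, the size limit and the fold.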

Additional observations from a re-analysis of the deposited data

How the results depend on the processing

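Of 199 values of 23 results under 11 alternatives, 184 moved by less than 0.1 (log2 medians) or 1.5 times (counts) and 15 moved more. Of the 184, 6 medians or gaps near 0 changed sign: with the length trend out, the large-minus-small gap at 7 d went from 0.076 to -0.021 and at 24 h from 0.00035 to -0.0033; with loci naming 1 gene only, that at 24 h was -0.023 and the 2 h median of complex V 0.0098; with columns at a common median, the 2 h medians of the members and of complex III were -0.0018 and -0.016. The order of large and small subunits is therefore not stable. Subtracting the length trend changed most: the 7 d median went to -0.078 and those of complexes III, IV and V to -0.092, -0.024 and -0.064. This changed the order of complexes IV and V. Members lower at 7 d went from 17 to 4, beside 3.3% of 11270 loci on that scale. Members highest in saline 7 d, a count added after the values were seen, went from 32 to 21, beside 23.9% of 11073 loci. A fold of 1.1 gave 28 of 39 lower at 7 d (22.9% of all loci) and 5 of 40 higher at 2 h (20.9% of all loci). At 24 h it gave 2 of 40 lower (11.6% of all loci) and 1 higher (13.2%). A fold of 1.5 gave 0 lower at 24 h (0.994% of all loci) and 0 at 7 d (1.53%). A mean FPKM of at least 10 gave 0 lower at 24 h (1.97% of all loci), and no filter gave 1 higher at 7 d (Atp5l2-ps, 5.44% of all loci). Columns scaled to a common median gave 4 members lowest in cocaine 7 d in place of 9 (10.7% of all loci in place of 17.3%). No paired analysis was possible because each deposited value pools the 2 libraries of a group and the columns carry no replicate. Leaving out a library was not possible for the same reason, so the spread between libraries limits every value here by an unknown amount.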
